A study of Mus musculus with 6 samples.

Results

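RNA of the respiratory chain was measured in terminally exhausted CD8+ T cells sorted from mouse melanomas that had been exposed to an interleukin-10 fusion protein or to buffer. The genes were taken from the 15898 listed genes by symbol, as the structural subunits of complexes I, III, IV and V and cytochrome c. The symbols matched 93 genes, of which 86 were subunits, 77 encoded in the nucleus and 9 in mitochondrial DNA. The other matches were 5 pseudogenes and 2 genes, Atp5s and Atp5sl, whose products are not subunits. All 86 subunits passed the filter on low counts, and of the 93 matches only the pseudogene Atp5k-ps2 failed it. The mitochondrial genes mt-Co2, mt-Co3, mt-Atp6 and mt-Atp8 were not analysed here.

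Complex I oxidises NADH, complex III passes the electrons to cytochrome c, and complex IV hands them to oxygen. These complexes pump protons across the inner mitochondrial membrane, and complex V, the ATP synthase, makes ATP from their return. Each complex is built around a core of subunits that have counterparts in bacteria, and eukaryotes have added accessory subunits that stabilise, assemble or regulate it. Exhausted CD8+ T cells are known for weakened mitochondrial respiration, and interleukin-10 is known to act on the metabolism of several immune cells.

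The study asked which genes change in these cells when IL-10/Fc is given. Both groups came from C57BL/6 mice bearing B16F10 melanoma, a line that carries the antigen gp100. The animals received 4 Gy of irradiation and then naive Thy1.1+ PMEL T cells before the tumour. PMEL cells are of strain B6.Cg-Thy1a/Cy with the transgene Tg(TcraTcrb)8Rest, a receptor for gp100. On day 10 each received activated Thy1.2+ PMEL CD8+ T cells, and 4 injections beside the tumour began, of PBS in the control group (2 libraries) or of 20 µg IL-10/Fc in the treated group (4 libraries). On day 18, 500 Thy1.1+ CD8+ cells bearing PD-1 and TIM-3 were sorted for each library and amplified by Smart-Seq2, which copies whole polyadenylated transcripts without molecular identifiers or strand. Whether each library stands for a separate mouse is not stated in the labels. The p-values therefore cover the variation among these samples, part of which may be technical. All cells carry 1 transgenic receptor and were given to irradiated hosts, which limits the model.

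Total counts per library ran from 26738871 to 36941814. All 9 CD8 T cell markers checked were listed, and their summed level was 15350 and 20760 TMM-scaled CPM (counts relative to library size, corrected for composition) in PBS against 23000 to 26360 in IL-10/Fc. Markers of macrophages and monocytes, 14 of 14 listed, summed to 311 and 479 in PBS against 257, 569, 1084 and 1094 in IL-10/Fc replicates 1 to 4. Among them Mrc1 was at 0 in both PBS libraries, and Itgam was at 0 in PBS replicate 2. Markers of dendritic cells and MHC class II, 7 of 8 listed, summed to 167 and 287 in PBS against 168, 642, 1894 and 994 in IL-10/Fc. Of 5 B cell markers only Cd79b was listed, at 0.719 CPM or less in PBS against 1.74 to 6.56 in IL-10/Fc. Of 7 melanoma markers 4 were listed, summing to at most 9.04 in any library. Cd4 and Foxp3 were not analysed here.

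No subunit passed the test after adjustment over all genes. By edgeR's quasi-likelihood test, 1 of 15477 genes (0.00646%) had an adjusted p under 0.05, and the lowest adjusted p among the subunits was 0.172, for Cox5a. At an unadjusted p under 0.05, 21 of 86 subunits (24.4%) lay higher in IL-10/Fc, beside 7.2% of all genes, and 8 (9.3%) lay lower, beside 5.52% of all genes. The background differs for short, abundant genes. Of nuclear coding genes under 150 codons at 100 CPM or more, subunits included, 114 of 329 lay higher. Of the subunits under 150 codons 16 of 47 did, a similar share. The 2 groups of libraries did not overlap for 37 subunits (43%) that lay higher, beside 12.1% of all genes, and for 8 (9.3%) that lay lower, beside 11.5%, so that the last share was no larger than the background. The 8 lower ones included Atp5b, Atp5a1, Uqcrc2, Uqcrc1, Ndufa4, Ndufv1 and Ndufs1. Among them were the beta and alpha subunits of the catalytic head of the ATP synthase and 2 subunits of the NADH-oxidising module of complex I. The 21 higher ones were 19 nuclear accessory subunits, cytochrome c and 1 mitochondrial gene, mt-Nd2.

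These counts depended on the test and on the scaling. With DESeq2's Wald test as an alternative, 741 genes (4.79%) and 10 subunits had an adjusted p under 0.05: Cox5a, Usmg5, Cox8a and Cycs higher and Atp5b, Atp5a1, Uqcrc2, Ndufa4, Uqcrc1 and Ndufv1 lower. limma-voom called 0 subunits. At an unadjusted p under 0.05 it placed 24 (27.9%) higher, beside 6.29% of all genes, and 8 (9.3%) lower, beside 7.23%. Scaling by library size alone moved the median log2 fold change of all genes from -0.0079 to -0.18, and 4 subunits (4.65%) then lay higher, beside 4.21% of all genes, and 10 (11.6%) lower, beside 10.6%, at an unadjusted p under 0.05. Under this scaling the subunits' shares were thus near those of all genes in both directions. None of these 21 higher and 8 lower subunits of the main test changed its sign under any of the scalings. This had to be so, because library size scaling moved values down by less than the smallest positive one among them (Atp5j, 0.28). Without PBS replicate 1, 17 subunits (19.8%) lay higher, beside 5.7% of all genes, and 4 (4.65%) lower, beside 3.74%, at an unadjusted p under 0.05. With 1 control left more genes of any kind do not overlap. Without PBS replicate 1 this held for 56 subunits that lay higher (65.1%, beside 23% of all genes), and without PBS replicate 2 for 20 that lay lower (23.3%, beside 26.9%).

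With TMM scaling, the core subunits with the smallest p lay lower, and 45 of 58 nuclear accessory subunits had positive values. The median log2 fold change was -0.091 over the 18 nuclear core subunits and 0.18 over the 58 nuclear accessory subunits, beside -0.0079 over all genes. With library size scaling both medians moved with the background, to -0.26 and 0.0037 beside -0.18. Of the core subunits 5 lay lower and 0 higher at an unadjusted p under 0.05, and of the accessory subunits 3 lay lower and 19 higher. Of all genes 5.52% lay lower and 7.2% higher. By sign alone, 8 core subunits had positive and 10 negative values, and the 9 core subunits of complex V had a positive median of 0.061. These medians describe the genes and were given no test.

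A ratio taken within each library does not depend on the scaling. The counts on nuclear core subunits over those on accessory subunits came to 0.458 and 0.447 in PBS against 0.345, 0.363, 0.394 and 0.350 in IL-10/Fc. The groups did not overlap, and the mean ratio in IL-10/Fc was 0.802 times that in PBS, or 0.78 to 0.816 times with any 1 library left out. As a ratio of sums it weighs abundant genes most. In mean TMM-scaled CPM the core sum was 7798 in PBS and 7023 in IL-10/Fc. Within it Atp5b was at 1812 and 1329 and Atp5a1 at 952 and 654, a fall about as large as that of the whole core sum. The accessory sum was 17239 and 19387. The overall ratio thus does not show that core subunits moved as a class. In complex I the ratio was 0.228 and 0.217 in PBS against 0.158, 0.175, 0.193 and 0.174 in IL-10/Fc. In complex V it was 3.08 and 2.81 in PBS against 2.00, 2.15, 2.34 and 1.98 in IL-10/Fc, so all 4 treated libraries lay below both controls in both complexes. The 2 nuclear core subunits of complex III gave 0.211 and 0.190 in PBS against 0.211, 0.191, 0.201 and 0.186 in IL-10/Fc, and the groups overlapped. The lowest overall ratio, 0.345, was that of IL-10/Fc replicate 1, whose macrophage and monocyte markers (257 CPM) and dendritic cell markers (168 CPM) summed to the lowest values of the treated group. Single markers stood above both controls in this library, with Itgax at 57.8 CPM beside 3.84 and 9.64, and Fcer1g at 84.6 beside 34.4 and 40.7. The part of other cell types in the ratio was not tested.

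**Figure D1:**
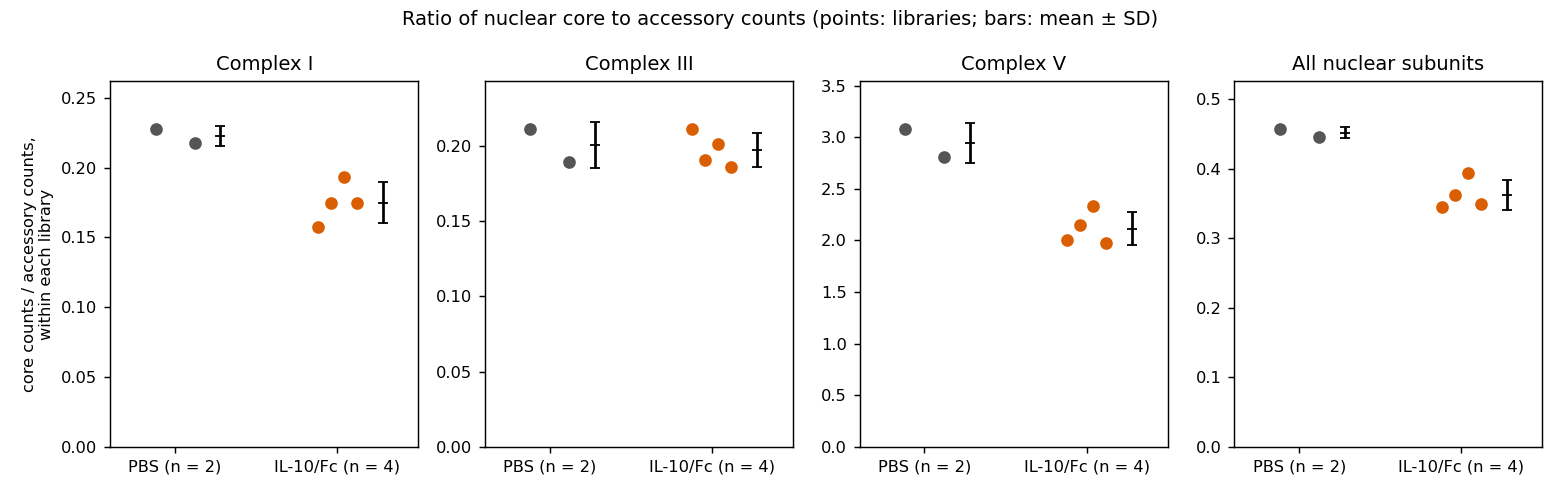
Counts on nuclear core subunits divided by counts on nuclear accessory subunits within each library, for complex I, complex III, complex V and all nuclear subunits; points are libraries and bars are mean ± SD (PBS n = 2, IL-10/Fc n = 4). All 4 IL-10/Fc libraries sit below both PBS libraries for complex I, complex V and all subunits (0.345 to 0.394 against 0.447 and 0.458), and the groups overlap for complex III. The sums for complex V and for all subunits weigh the abundant genes Atp5b and Atp5a1 most.

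In complex I, Ndufv1 and Ndufs1 of the NADH-oxidising module were among the lower subunits. Ndufv1 (chr19:4007497-4012806, - strand, build GRCm38 as for all positions here), which binds NADH and the flavin that takes its electrons, stood at 211 and 181 TMM-scaled CPM in PBS against 94.2, 152, 132 and 121 in IL-10/Fc. The log2 fold change was -0.66 ± 0.19 (SE), with an adjusted p of 0.281 by edgeR. Ndufs1, the largest subunit, which carries iron-sulfur clusters next to Ndufv1, stood at 73.7 and 92.1 in PBS against 56, 51.9, 65.8 and 71.9 in IL-10/Fc. Its log2 fold change was -0.43 ± 0.18, with an edgeR adjusted p of 0.39. For both genes every treated library lay below both controls.

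The core subunits beside them did not move alike. Ndufv2, the partner of Ndufv1 in the NADH-oxidising module, stood at 380.4 and 332 in PBS against 380.2, 334, 401 and 338 in IL-10/Fc, for a fitted log2 fold change of 0.029 ± 0.12. Within each library, Ndufv1 and Ndufs1 together took 0.750 and 0.824 times the counts of Ndufv2 in PBS against 0.395, 0.611, 0.493 and 0.569 times in IL-10/Fc, without overlap. The iron-sulfur subunits Ndufs3, Ndufs7 and Ndufs8 had log2 fold changes of -0.22 ± 0.11, -0.084 ± 0.15 and 0.13 ± 0.13, and their groups overlapped.

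Of the 29 nuclear accessory subunits of complex I, 9 lay higher at an unadjusted p under 0.05 and 0 lower, and 16 lay higher without overlap. Of all genes 7.2% lay higher and 5.52% lower at that threshold, and 12.1% lay higher without overlap. Ndufb3, a small membrane arm protein, stood at 99.8 and 103 CPM in PBS against 136, 134, 120.1 and 134 in IL-10/Fc, for a fitted log2 fold change of 0.37 ± 0.10 with an edgeR adjusted p of 0.265. Ndufs4, whose loss in humans causes Leigh syndrome, stood at 158 and 162 in PBS against 211, 201, 200.4 and 189 in IL-10/Fc, for a fitted log2 fold change of 0.33 ± 0.092. Ndufa5, a subunit of the peripheral arm, had close replicates, at 149 and 151 in PBS against 181, 183, 181 and 189 in IL-10/Fc. The treated libraries lay above the controls for each of these genes. Ndufa13, also known as GRIM-19, stood at 414 and 519.5 in PBS against 651, 633, 555 and 644 in IL-10/Fc, and Ndufa3 at 219 and 332 against 408, 434, 361 and 416. Ndufv3, Ndufa2, Ndufs5 and Ndufb11 completed the 9, with log2 fold changes of 0.39 ± 0.12, 0.31 ± 0.095, 0.42 ± 0.17 and 0.39 ± 0.16, and Ndufb11 overlapped between the groups. At the other end, Ndufa12, Ndufc2, Ndufb8, Ndufa10 and Ndufa6 had values from -0.087 to -0.01, within their standard errors of 0. Ndufab1, the mitochondrial acyl carrier protein, stood at 36.7 and 52.7 in PBS against 42.4, 49.6, 49.4 and 52.4 in IL-10/Fc, which overlapped.

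**Figure D2:**
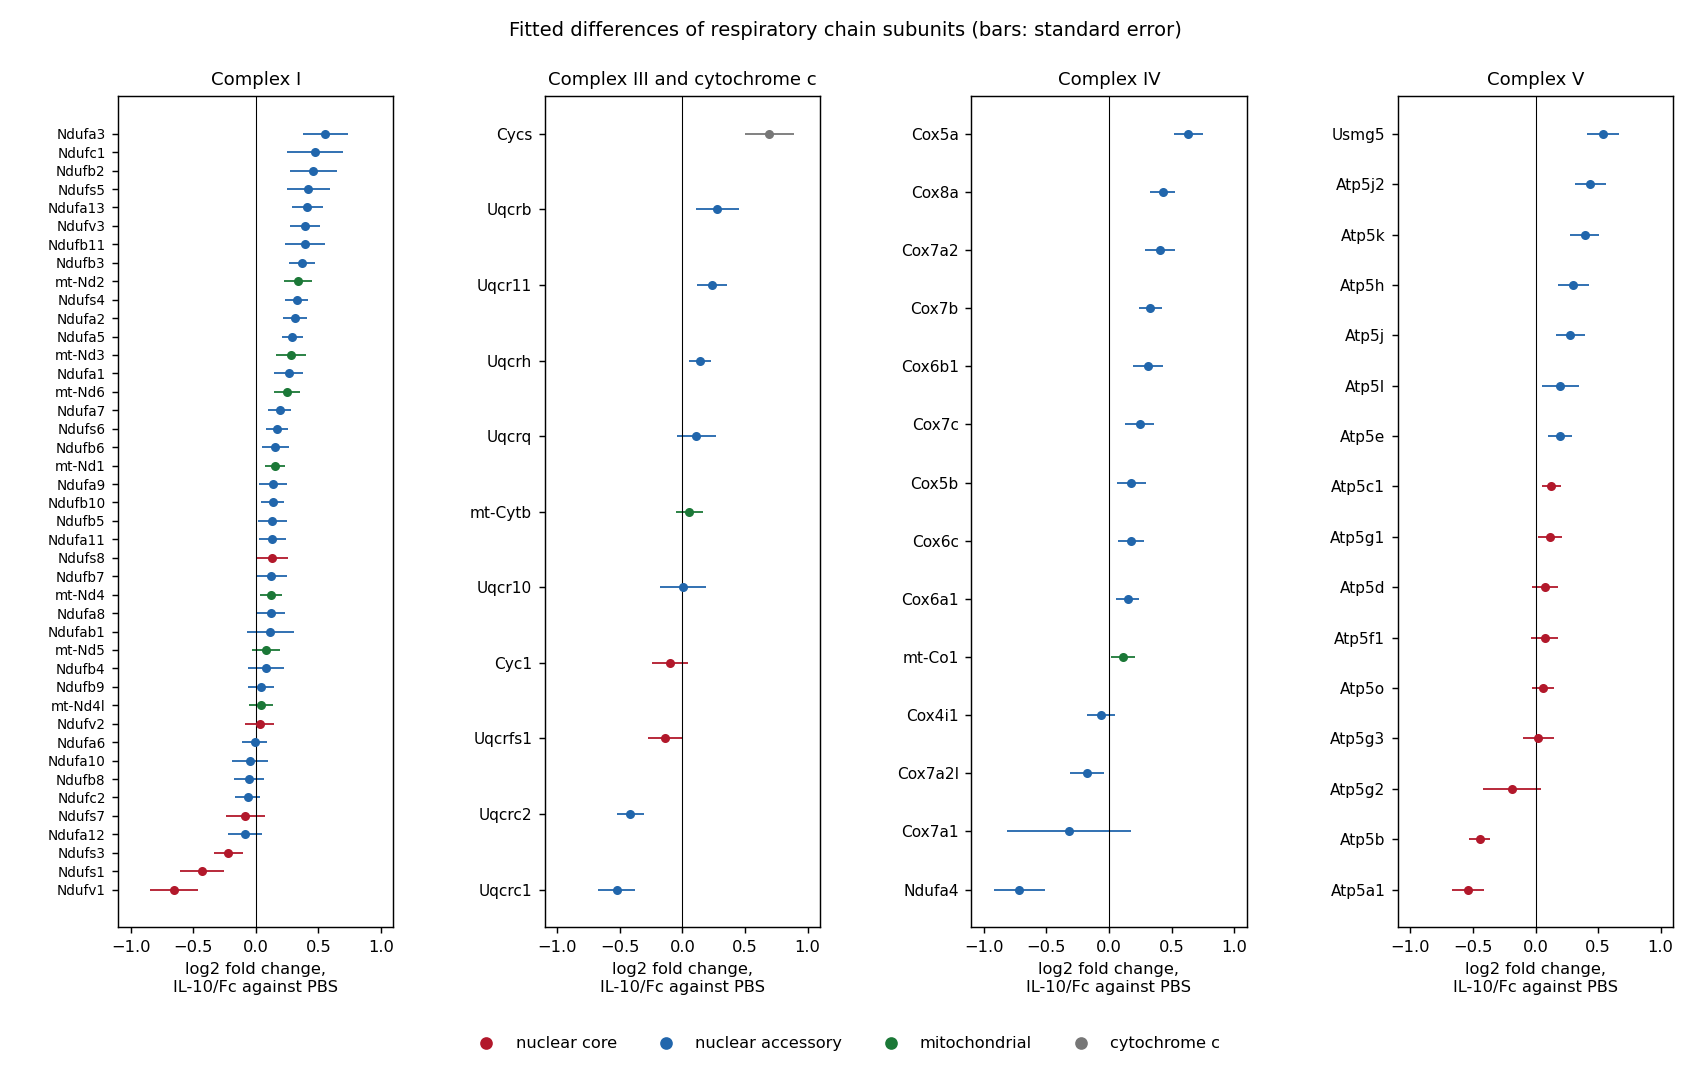
Fitted log2 fold change (IL-10/Fc against PBS, edgeR, TMM scaling) of the subunits by complex, with bars of 1 standard error; colours mark nuclear core, nuclear accessory and mitochondrial subunits and cytochrome c, and not every subunit is drawn (the low-count genes Cox6a2 and Cox6b2 are among those left out). The lowest values in complexes I and V are core subunits (Ndufv1 at -0.66, Atp5a1 at -0.54), in complex III Uqcrc1 and Uqcrc2 and in complex IV Ndufa4. Accessory subunits hold the upper ends of the complexes. Cytochrome c, drawn beside complex III, lies above the subunits of that complex (Cycs at 0.69, Uqcrb at 0.28).

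In complex III the lower subunits were a pair, Uqcrc1 and Uqcrc2. They encode the large matrix-facing proteins of the complex, relatives of the mitochondrial processing peptidase that are absent from the bacterial enzyme and were therefore counted as accessory. Uqcrc1 (chr9:108936633-108949623, + strand) stood at 781 and 624 CPM in PBS against 403, 519.7, 520.4 and 511 in IL-10/Fc, for a fitted log2 fold change of -0.52 ± 0.15 with an edgeR adjusted p of 0.269. Uqcrc2 (chr7:120635176-120659524, + strand) stood at 347 and 295 in PBS against 234, 247, 257 and 225 in IL-10/Fc, for a fitted log2 fold change of -0.42 ± 0.11 with an adjusted p of 0.237. Their summed counts were 0.539 and 0.519 times those of the other 7 nuclear complex III subunits in PBS against 0.313, 0.390, 0.385 and 0.351 times in IL-10/Fc. Both controls thus lay above all treated libraries.

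The redox subunits of complex III overlapped between the groups. Uqcrfs1, the Rieske iron-sulfur protein, stood at 392 and 280.2 in PBS against 296, 306, 309.9 and 310.4 in IL-10/Fc, and Cyc1, cytochrome c1, at 170.1 and 148 against 170.1, 132, 159 and 134. Both log2 fold changes, -0.14 ± 0.14 and -0.098 ± 0.14, became positive without PBS replicate 1, at 0.12 and 0.0038. The small subunits Uqcrh (the hinge protein) and Uqcr11 lay higher without overlap, with log2 fold changes of 0.14 ± 0.088 and 0.24 ± 0.12, and Uqcrb, Uqcrq and Uqcr10 overlapped. Over the 9 nuclear subunits of the complex the median was 0.0061, and it was negative under 6 of the alternatives.

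Cytochrome c itself, encoded by Cycs (chr6:50562563-50566538, - strand) and also a trigger of apoptosis when released, had the highest log2 fold change of any subunit. It stood at 217 and 336 CPM in PBS against 440.4, 389.8, 460.1 and 498 in IL-10/Fc. The controls differed by more than the treated libraries did, the groups did not overlap, and the log2 fold change was 0.69 ± 0.20 with an edgeR adjusted p of 0.271.

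Complex IV had 15 nuclear subunits, all accessory, because its catalytic core is mitochondrial. Of these, 5 lay higher and 1 lower at an unadjusted p under 0.05, beside 7.2% and 5.52% of all genes. Cox5a (chr9:57521274-57532426, + strand), which faces the matrix, had the smallest p of all subunits, with 403 and 402 CPM in PBS against 643, 542, 625 and 689 in IL-10/Fc. The SD between the controls was 0.807 CPM, every treated library lay above them, and the log2 fold change was 0.64 ± 0.12. Cox8a, the ubiquitous form of the smallest subunit, stood at 614 and 702 in PBS against 920.4, 918, 806 and 897 in IL-10/Fc, for a fitted log2 fold change of 0.43 ± 0.10 with an edgeR adjusted p of 0.214. Cox7b, Cox7a2 and Cox6b1 also lay higher, with log2 fold changes of 0.33 ± 0.092, 0.40 ± 0.12 and 0.31 ± 0.12. Cox4i1, the most abundant nuclear subunit per kb of transcript at a mean of 2207 CPM per kb, stood at 1945 and 1537 CPM in PBS against 1700.5, 1664, 1559 and 1726 in IL-10/Fc, which overlapped.

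Ndufa4 (chr6:11900292-11907497, - strand), named for complex I and later placed in complex IV, had the lowest p of the complex IV subunits with negative values, which were 6 of 15. It stood at 378 and 241 CPM in PBS against 153, 211, 191 and 198 in IL-10/Fc. Each treated library lay below both controls, although the controls themselves lay far apart, and the log2 fold change was -0.72 ± 0.21 with an adjusted p of 0.274 by edgeR. Cox7a2l, a protein linked to supercomplexes of complexes III and IV, overlapped between the groups at a log2 fold change of -0.17 ± 0.13. Supercomplexes were not measured.

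Tissue forms of complex IV subunits were close to absent. Cox7a1, the heart and muscle form of Cox7a2, averaged 3.55 ± 0.986 CPM (SD, n = 2) in PBS against 2.84 ± 1.18 (SD, n = 4) in IL-10/Fc. Cox6a2, the muscle counterpart of Cox6a1, had counts of 0 and 27 in PBS against 13, 0, 0 and 19 in IL-10/Fc, and no fold is given for it. Cox6a1 stood at 681 and 659 CPM in PBS against 772, 725, 684 and 794 in IL-10/Fc, without overlap, with a log2 fold change of 0.15 ± 0.093 that became -0.022 with library size scaling. Cox6b2, the testis form, had counts of 103 and 79 in PBS against 0, 52, 83 and 82 in IL-10/Fc.

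In complex V the 2 subunits that lay lower at an unadjusted p under 0.05 belong to the catalytic head, and the 5 that lay higher to the membrane part and the stalk. Atp5b encodes the catalytic beta subunit and Atp5a1 the alpha subunit that alternates with it in the F1 head. Atp5b (chr10:128083273-128090391, + strand) stood at 1795 and 1828 CPM in PBS against 1269, 1266, 1442 and 1339 in IL-10/Fc, for a fitted log2 fold change of -0.45 ± 0.085 with an edgeR adjusted p of 0.179. Atp5a1 stood at 1073 and 831 in PBS against 597, 657, 707 and 656 in IL-10/Fc, for a fitted log2 fold change of -0.54 ± 0.13 with an adjusted p of 0.212. For both genes every treated library lay below both controls. Together they took 35.3% and 34.4% of the counts on nuclear complex V subunits in PBS against 24.2%, 25.1%, 27.5% and 24.4% in IL-10/Fc. The ratio of Atp5a1 to Atp5b was 0.598 and 0.455 in PBS against 0.471, 0.519, 0.490 and 0.490 in IL-10/Fc, so the treated libraries lay between the controls. The choice of this ratio, and of the other gene pairs set against each other within libraries, followed a first look at their values.

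The remaining core subunits, in the head, the stalks and the c ring, showed smaller differences. Atp5c1, the gamma subunit that turns inside the head, stood at 876 and 840.3 in PBS against 929, 946, 921 and 954 in IL-10/Fc, for a fitted log2 fold change of 0.13 ± 0.074 that became -0.044 with library size scaling. Atp5d, Atp5f1 and Atp5o, which encode the delta subunit, subunit b and the oligomycin sensitivity protein, overlapped between the groups, with log2 fold changes of 0.075 ± 0.10, 0.073 ± 0.11 and 0.061 ± 0.091. The c ring has 3 genes with 1 mature product. Atp5g3 stood at 598 and 485 against 515, 529, 542 and 614, Atp5g1 at 219 and 197 against 230.3, 218, 219 and 234, and Atp5g2 at 12.02 and 10.3 against 10.9, 10.3, 8.18 and 9.83, in PBS and IL-10/Fc respectively, and all 3 overlapped.

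The 7 accessory subunits of complex V all had positive values. At an unadjusted p under 0.05, 5 of them lay higher, beside 7.2% of all genes. Usmg5, also called DAPIT, which helps ATP synthase form dimers, stood at 163 and 204 CPM in PBS against 277, 248, 254 and 288 in IL-10/Fc, for a fitted log2 fold change of 0.54 ± 0.13 with an edgeR adjusted p of 0.219. Atp5j2, subunit f in the membrane, stood at 287 and 322 in PBS against 408, 392, 375 and 476 in IL-10/Fc. Atp5k, subunit e beside it, stood at 199 and 193 against 269, 244, 231 and 285. Treated libraries lay above controls in each of these genes. Atp5h and Atp5j, subunits d and F6 of the outer stalk, had log2 fold changes of 0.30 ± 0.12 and 0.28 ± 0.11, and Atp5e and Atp5l had 0.19 ± 0.097 and 0.20 ± 0.15. Summed over the 4 membrane subunits Usmg5, Atp5j2, Atp5k and Atp5l, the level was 718 and 772 CPM in PBS against 1027, 951, 925 and 1125 in IL-10/Fc.

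**Figure D3:**
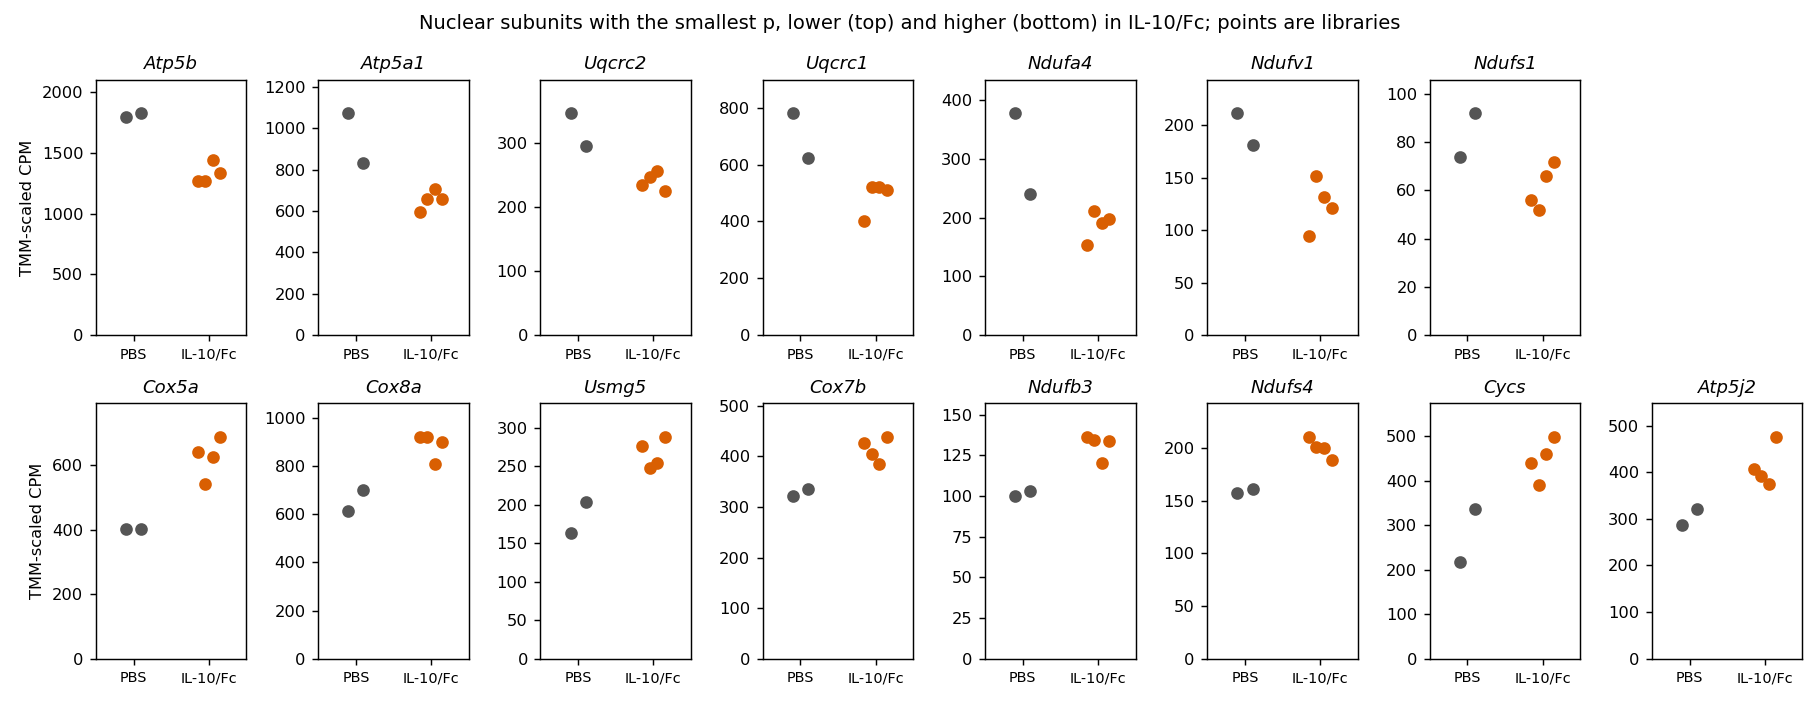
TMM-scaled CPM of 15 nuclear subunits in every library, 7 of the 8 that lay lower in IL-10/Fc (top) and the 8 with the smallest p among those that lay higher (bottom); each axis starts at 0, grey points are the 2 PBS and orange points the 4 IL-10/Fc libraries. In every panel the groups are apart, and none of the 15 passed the adjusted test (lowest edgeR adjusted p 0.172). The wide gap between the 2 controls is visible for Ndufa4 (378 and 241) and Cycs (217 and 336).

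Promoters of 65 of the 77 nuclear subunits were matched to RefSeq windows of 250 bases before to 50 after the start (GRCm38.p6). Motifs of factors known to act on respiratory genes were searched on both strands, a choice made after the values were seen. The letters CGGAAG, bound by the ETS family that includes GABP (NRF2), were in 40.0% of the subunits' windows and 23.5% of the windows of 17492 protein-coding genes. GCATGCG, part of the palindrome bound by NRF1, was in 16.9% against 4.96%. ATGGCGG, bound by YY1, was in 15.4% against 6.05%, and TGACGT, bound by the CREB family, in 15.4% against 9.6%. CGGAAG was in 9 of the 19 matched windows of subunits that lay higher and in 0 of the 4 matched windows of those that lay lower. For GCATGCG and for ATGGCGG the counts were 3 of 19 and 1 of 4, and for TGACGT 5 of 19 and 1 of 4. With 4 windows, these shares describe the genes alone, and no difference between higher and lower subunits is read from them. ATGGCGG can run into CGGAAG, so 1 stretch can count for both. A match is a stretch of letters, not a measured binding site.

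The promoters of 2 subunits that lay lower and 2 that lay higher are shown from 120 bases before to 30 after the start, 5′ to 3′, as examples of such starts with and without the letters. They were picked after the search and do not stand for their groups. Capitals mark the letters of the motifs above on either strand.
Atp5b (chr10:128083187-128083336, + strand): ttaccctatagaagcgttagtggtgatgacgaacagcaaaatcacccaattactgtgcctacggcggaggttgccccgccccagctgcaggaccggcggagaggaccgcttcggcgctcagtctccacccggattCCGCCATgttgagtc
Ndufv1 (chr19:4012726-4012875, - strand): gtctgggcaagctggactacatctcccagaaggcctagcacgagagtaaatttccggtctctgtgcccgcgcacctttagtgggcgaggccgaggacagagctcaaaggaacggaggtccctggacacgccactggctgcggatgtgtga
Cox8a (chr19:7217587-7217736, - strand): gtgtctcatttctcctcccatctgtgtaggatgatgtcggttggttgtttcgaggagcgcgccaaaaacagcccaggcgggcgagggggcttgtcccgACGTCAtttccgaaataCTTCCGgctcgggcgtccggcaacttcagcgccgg
Usmg5 (chr19:47090618-47090767, - strand): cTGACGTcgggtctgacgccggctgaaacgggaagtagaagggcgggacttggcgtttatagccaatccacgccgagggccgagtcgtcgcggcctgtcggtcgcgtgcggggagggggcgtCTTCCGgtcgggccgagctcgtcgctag
Atp5b holds the YY1 letters, in reverse, just after its start, and Ndufv1 holds no motif letters in this stretch. Cox8a and Usmg5 each hold the CREB and the ETS letters.

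The size of the encoded protein went with the direction among nuclear subunits, a relation looked for after the values were seen. The 8 lower subunits had a median of 472 codons (82 to 727), and the 20 higher nuclear ones a median of 104.5 (58 to 468). Under 150 codons, the median log2 fold change of 47 subunits was 0.19, from 150 to under 300 codons that of 19 was 0.075, and at 300 codons or more that of 11 was -0.43. All nuclear coding genes tested had medians over the same classes of 0.13 (919 genes), 0.018 (2415) and -0.067 (7871). Among genes of at least 100 CPM, closer to the subunits in level, the medians were 0.19, 0.080 and -0.016. At an unadjusted p under 0.05, 16 of the 47 subunits under 150 codons lay higher and 1 lower. Of 329 genes of that size and level 114 lay higher and 10 lower. At 300 codons or more, 1 of 11 subunits lay higher and 7 lower, beside 87 and 81 of 637 such genes. Spearman's rho of log2 fold change with codons, across genes of the same 6 libraries, which are not independent replicates, was -0.495 over the 77 subunits, -0.229 over 1520 genes of at least 100 CPM and -0.0181 over 11205 coding genes.

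Size and class overlap, so the split into core and accessory was also read within size classes. All 6 core subunits of 300 codons or more had negative values (median -0.46), 5 of them at an unadjusted p under 0.05, while Cyc1 overlapped between the groups. The 9 core subunits of 150 to under 300 codons had a median of 0.061, with 6 positive and 3 negative values, beside 0.13 for the 10 accessory subunits of that size. The accessory subunits of 300 codons or more were 5. Uqcrc1 and Uqcrc2 lay lower, Ndufa9 and Ndufa10 overlapped between the groups, and Ndufv3, a gene known for a long and a short protein form, lay higher. Ndufa4, at 82 codons, was the only subunit under 150 codons that lay lower at an unadjusted p under 0.05. What core status and protein size each contribute was not tested.

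**Figure D4:**
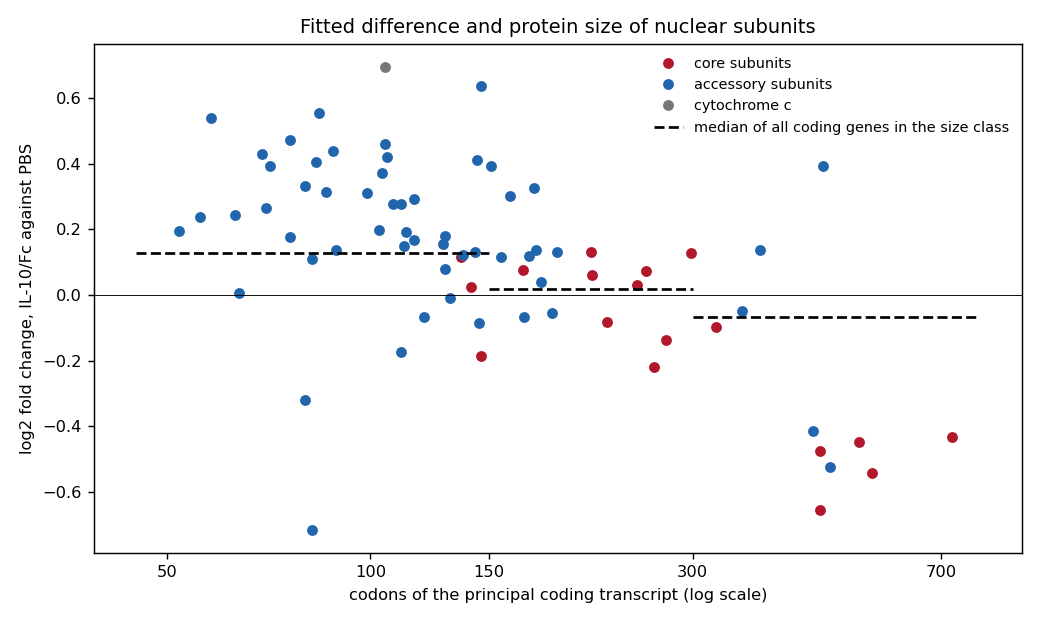
Fitted log2 fold change of the nuclear subunits (Cox6a2 and Cox6b2 left out) against the number of codons of the principal coding transcript (log axis); colours mark core subunits, accessory subunits and cytochrome c, and dashed lines are the medians of all coding genes in the classes under 150, from 150 to under 300 and at least 300 codons (0.13, 0.018 and -0.067). Of the 11 subunits of at least 300 codons, 7 lie at -0.42 or below, under the dashed line of their class, and core subunits under 300 codons lie between -0.22 and 0.13.

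The 9 mitochondrial genes, mt-Nd1 to mt-Nd6 with mt-Nd4l, mt-Co1 and mt-Cytb, were spread over a wide range of levels. Means over all libraries per kb of gene were 3952 CPM for mt-Nd1, 3368 for mt-Cytb, 2455 for mt-Co1, 1517 for mt-Nd4, 1117 for mt-Nd4l, 797 for mt-Nd5, 655 for mt-Nd6, 356 for mt-Nd2 and 159 for mt-Nd3. All are transcribed from few promoters and cut from long precursors, with mt-Nd6 on the opposite strand. The overlap of mt-Nd4l with mt-Nd4 and the missing strand information limit how exactly reads are assigned to these genes.

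All 9 had positive log2 fold changes, with a median of 0.12, but 6 of them (mt-Nd1, mt-Nd4, mt-Nd4l, mt-Nd5, mt-Co1 and mt-Cytb) turned negative with library size scaling. mt-Nd2, a membrane subunit of complex I, stood at 287 and 341 CPM in PBS against 379.6, 385, 433 and 389 in IL-10/Fc, for a fitted log2 fold change of 0.34 ± 0.11 with an edgeR adjusted p of 0.313. mt-Nd3 stood at 46.98 and 50.1 in PBS against 56.6, 61.04, 57.7 and 60.5 in IL-10/Fc, and mt-Nd6 at 285 and 319 against 382, 326, 369 and 358. In these 3 genes and in mt-Nd1 the treated libraries lay above the controls. mt-Co1, the catalytic subunit of complex IV, stood at 3889.9 and 3301 in PBS against 3681, 3998, 3794 and 4089 in IL-10/Fc, and mt-Cytb, the membrane core of complex III, at 3487 and 4023 against 3501, 3868, 4323 and 3917, both with overlap. The 2 mitochondrial ribosomal RNAs, which are not subunits but share the heavy-strand transcript, also lay higher without overlap. mt-Rnr1 stood at 996 and 929 against 1250.0, 1286, 1177 and 1234, and mt-Rnr2 at 6341 and 5993 against 8046, 8186, 7064 and 7240.0, with log2 fold changes of 0.36 ± 0.082 and 0.31 ± 0.092.

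For the 9 mitochondrial genes analysed, the balance between the 2 genomes did not separate the groups. They took 36.5% and 38.7% of subunit counts in PBS against 36.3%, 38.8%, 39.6% and 37.4% in IL-10/Fc. This is not the whole mitochondrial share. It leaves out mt-Co2, mt-Co3, mt-Atp6, mt-Atp8 and the reads on copies of mitochondrial DNA on chromosome 1. In PBS, Gm10925 averaged 6040 CPM, Gm29216 3899, Gm28437 3741 and Gm28661 1006, beside 15237.5 for the 9 genes summed. What these reads would do to the ratios was not tested. Mitochondrial over nuclear complex I counts gave 0.989 and 1.09 in PBS against 0.957, 1.07, 1.11 and 1.004 in IL-10/Fc. For mt-Co1 over nuclear complex IV the ratios were 0.568 and 0.528 in PBS against 0.491, 0.548, 0.546 and 0.519 in IL-10/Fc. Subunits of both genomes together took 4.52% and 4.26% of all counts in PBS against 4.01%, 4.10%, 4.26% and 4.29% in IL-10/Fc. All of these overlapped between the groups. In bulk samples like these, fewer cells of a type and less RNA per cell cannot be told apart.

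**Figure D5:**
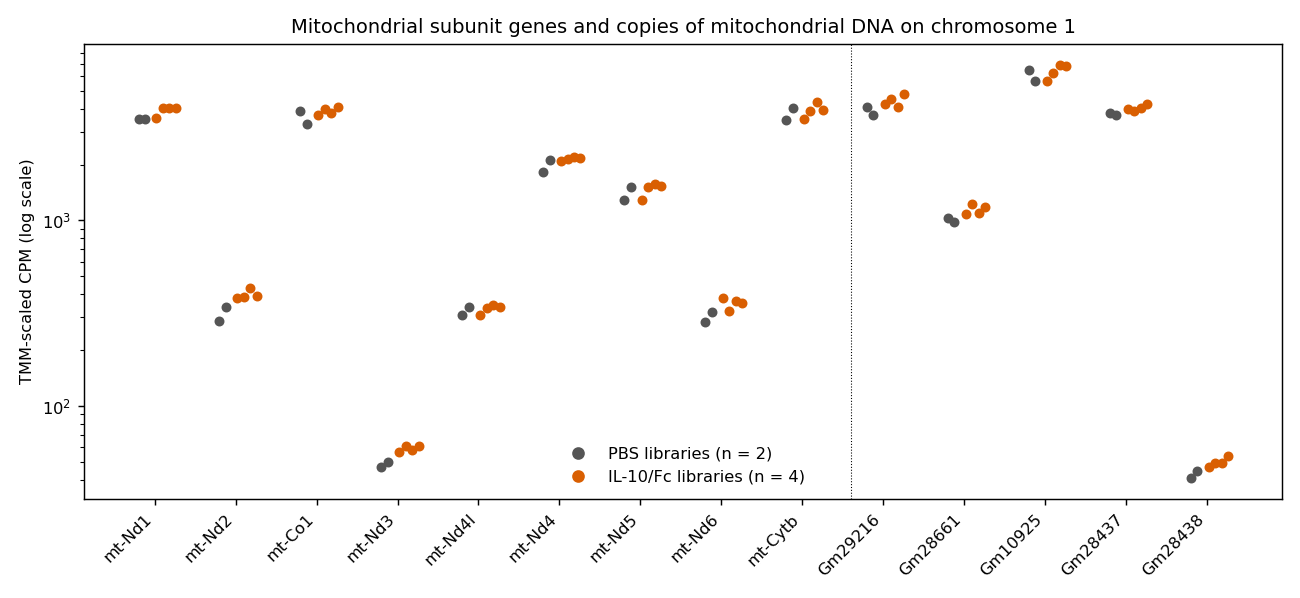
TMM-scaled CPM (log axis) of the 9 mitochondrial subunit genes (left of the dotted line) and of 5 copies of mitochondrial DNA on chromosome 1 (right), in the 2 PBS (grey) and 4 IL-10/Fc (orange) libraries. The copies Gm29216 and Gm28437 are near the level of mt-Nd1, mt-Co1 and mt-Cytb. Gm10925 lies above them, at a mean of 6040 CPM in PBS and 6397 in IL-10/Fc. Differences between groups are small on this axis and for 6 of the 9 genes change sign with library size scaling.

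Copies of mitochondrial DNA in the nuclear genome were listed with high counts. A stretch of chromosome 1 holds Gm28438, Gm28437, Gm10925, Gm28661 and Gm29216, annotated as unprocessed pseudogenes. Gm28661 is identical over its 681 bases to mt-Co2, Gm10925 over 678 bases to mt-Atp6 and Gm28437 over 783 bases to mt-Co3. Gm10925 stood at 6469 and 5612 CPM in PBS against 5619.7, 6257, 6911 and 6802 in IL-10/Fc, Gm28437 at 3772 and 3709 against 3995, 3908, 4012 and 4257, and Gm28661 at 1036 and 975 against 1082, 1228, 1102 and 1177. The parent genes of these 3 are among those not analysed here, and reads of a gene and of its identical copy cannot be told apart. Gm28438 differs from mt-Nd3 by 1 base in 345, and Gm29216 from mt-Co1 by 6 bases in 492, so the counts of mt-Nd3 and mt-Co1 can have been split with a copy. Gm29216 stood at 4099 and 3699.6 against 4226, 4526, 4099 and 4777, about the level of mt-Co1.

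All 6 differences between mt-Co1 and Gm29216 fall at the 5′ end of the copy. Beyond them the copy is identical to mt-Co1, so reads lying there cannot be told apart. The first 60 bases of the copy and the matching mt-Co1 bases are shown 5′ to 3′ on the sense strand (GRCm38), mismatches in capitals.
mt-Co1 (chrM:6381-6440, + strand): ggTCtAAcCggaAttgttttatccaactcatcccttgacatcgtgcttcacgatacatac
Gm29216 (chr1:24616138-24616197, - strand): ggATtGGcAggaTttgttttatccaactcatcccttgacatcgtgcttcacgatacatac

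Nuclear pseudogenes matched by symbol stood at 64.8 CPM or less in every library. Atp5l-ps2 stood at 42.4 and 36.6 CPM in PBS against 45.5, 43.4, 42.4 and 48.3 in IL-10/Fc, below its parent Atp5l at 69.4 and 53.6 against 73.4, 67.8, 65.2 and 75.8. The pseudogenes are shorter, and per kb Atp5l-ps2 (137 CPM) and Atp5l2-ps (173) lay above Atp5l (124). Uqcrh-ps1 (174) and Uqcrh-ps2 (57.4) lay below Uqcrh (873). Atp5l2-ps, Uqcrh-ps1 and Uqcrh-ps2 had log2 fold changes of 0.17 ± 0.16, 0.04 ± 0.12 and 0.12 ± 0.19, and all overlapped. Because such copies can take reads from Atp5l and Uqcrh, the values of these parents are uncertain.

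Other genes of the same machinery were read from lists chosen beside the subunits. Of all genes, 7.2% lay higher and 5.52% lower at an unadjusted p under 0.05. In lists this short, counts of a few genes are not read as results about the list. Complex II, succinate dehydrogenase, which is wholly nuclear and belongs to both the citric acid cycle and the chain, had 0 of 4 genes at an unadjusted p under 0.05. Its flavoprotein Sdha stood at 145 and 143 CPM in PBS against 104, 149.8, 96.5 and 115 in IL-10/Fc, and the median log2 fold change of the 4 was -0.26. Of 17 listed complex I assembly factors, 1 lay higher and 2 lower at an unadjusted p under 0.05, with a median of -0.18. Tmem186 stood at 9.75 and 10.8 in PBS against 0.503, 2.34, 1.405 and 1.85 in IL-10/Fc, for a fitted log2 fold change of -2.75 ± 0.57 with an edgeR adjusted p of 0.193. Ndufaf6 had -0.74 ± 0.27 and Ndufaf3 0.55 ± 0.18.

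Complex IV assembly factors numbered 22, with a median of 0.24. At an unadjusted p under 0.05, 3 lay higher and 2 lower, beside 7.2% and 5.52% of all genes. Cox20, which chaperones the mitochondrial subunit Cox2, stood at 67.7 and 97.9 CPM in PBS against 160.1, 153, 134 and 146 in IL-10/Fc, for a fitted log2 fold change of 0.84 ± 0.18. Pet100 and Higd1a had 0.51 ± 0.14 and 0.38 ± 0.12, and Coa7 and Coa5 had -0.62 ± 0.16 and -0.36 ± 0.13. Of 6 complex III factors, Uqcc2, needed for cytochrome b, lay higher at 60.1 and 95.9 against 147, 119.6, 118 and 135, beside negative values for Lyrm7 and Bcs1l of -1.07 ± 0.54 and -0.69 ± 0.36. All 4 complex V factors had negative values (median -0.18), 0 of them at an unadjusted p under 0.05. Atpaf1, the chaperone of the beta subunit, stood at 6.49 and 8.53 against 5.23, 2.58, 4.21 and 5.22, without overlap, and Atpaf2, that of the alpha subunit, at 23.9 and 26.5 against 18.8, 25.95, 22.9 and 22.9, with overlap.

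Genes that copy and stabilise mitochondrial RNA included 13 listed. At an unadjusted p under 0.05, 2 lay lower and 0 higher, beside 5.52% and 7.2% of all genes. Lrpprc, which stabilises mitochondrial messenger RNA, stood at 18.8 and 27.4 CPM in PBS against 13.8, 7.22, 14.3 and 10.4 in IL-10/Fc, for a fitted log2 fold change of -1.01 ± 0.33, and Mterf4 had -0.74 ± 0.25. Tfam, the packaging protein of mitochondrial DNA, overlapped at 38.2 and 32.6 against 28.8, 37.7, 32.4 and 24.3. Of 8 listed regulators of respiratory genes, 0 passed an unadjusted p under 0.05. Nrf1 stood at 39 and 28.5 against 19.97, 20.5, 22.6 and 33.4, Yy1 at 15.8 and 16.3 against 21.01, 17.1, 31.3 and 17.02, and Esrra at 1.698 and 0.817 against 2.78, 0.628, 3.82 and 1.48. The ATP synthase inhibitor gene Atpif1 and the uncoupling protein gene Ucp2 overlapped between the groups, with log2 fold changes of -0.15 ± 0.15 and 0.046 ± 0.12, the latter negative with library size scaling.

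Of the 9 CD8 T cell markers, 6 lay higher and 1, Pdcd1, lower at an unadjusted p under 0.05, and 0 passed edgeR's adjusted test. Of all genes 7.2% lay higher and 5.52% lower at that unadjusted threshold. Trbv14 and Havcr2, the gene of TIM-3, overlapped between the groups. Cd3d stood at 1481 and 1387 CPM in PBS against 2523, 2313, 2039 and 2434 in IL-10/Fc, and Cd8a at 910.4 and 2292 against 3161, 3097, 2896 and 3144, without overlap. Pdcd1, the gene of PD-1, stood at 1578 and 1286 against 699.5, 1112, 994 and 867. Fcer1g, a marker in the macrophage list, stood at 34.4 and 40.7 against 84.6, 155, 375 and 296. The part of these shifts in the subunit values was not tested.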

How the data were processed

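RNA was measured in 6 Smart-Seq2 libraries, 2 PBS and 4 IL-10/Fc. For every library the authors deposited a file of whole-number gene counts, and the counts in their series table are the same in all 6. Per the submitters' processing notes, the tools were Trimmomatic, TopHat2 2.1.1, Bowtie2 2.2.9, Cufflinks 2.2.1, Cuffdiff and DESeq2, with build GRCm38. The read counter was not named in those sources. Columns of the series table number the PBS libraries differently from the titles, and the titles were followed.

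Counts were filtered with edgeR 4.0.16 (filterByExpr by group, 15477 of 15898 genes kept), scaled by TMM (factors 1.10 and 1.06 in PBS, 0.950 to 0.983 in the treated group) and then put through edgeR's robust quasi-likelihood test in R 4.3.3, two-sided, with Benjamini-Hochberg adjustment over all genes. The standard error was the log2 fold change over the root of F. The test was checked on simulated data. Core was defined as having a bacterial counterpart, and codons and lengths came from the principal transcripts of GENCODE vM21. Alternatives were DESeq2 size factors, library size, DESeq2 1.42.0, limma-voom (limma 3.58.1), filters, no robust option, a replicate block and each library left out.

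The genes and lists were chosen with earlier results of these data known. Named genes were all mitochondrial genes, those at an unadjusted p under 0.05, the 3 smallest p and 2 highest levels per complex, fixed tissue forms and up to 3 genes per list. 1 gene that this rule names is not reported here. Others were named after their values were seen. The authors' own comparison in the series table was not used. Depth was 26738871 to 36941814 counts, so 3 counts were 0.0855 to 0.108 scaled CPM. Without unique identifiers, such floors cover counting error only.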

Additional observations from a re-analysis of the deposited data

Results flagged for a closer look

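Of 113 values checked for a library set apart within the IL-10/Fc group, 5 had 1 library beyond the 95% limit of Dixon's test, and chance sets apart about 1 in 20 such groups. mt-Nd1 was at 3567 CPM in IL-10/Fc replicate 1 and at 4012 to 4043 in the other 3 libraries. Uqcrc1 was at 403.2 CPM in the same replicate and at 511 to 520.4 in the others. Ndufb3 was at 120.1 CPM in IL-10/Fc replicate 3, against 134 to 136.4. The summed NADH-oxidising module of complex I (Ndufv1, Ndufv2 and Ndufs1) came to 599.1 CPM in replicate 3, against 530.4 to 537.5. The 3 c ring genes summed to 857.6 CPM in replicate 4, against 756.7 to 769.4.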

How the results depend on the processing

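With library size scaling 0 genes were called, 4 subunits (4.65%, beside 4.21% of all genes) lay higher at an unadjusted p under 0.05, and 15 higher (17.4%, beside 7.24%) and 14 lower ones (16.3%, beside 19.8%) did not overlap. The medians were then -0.041 (nuclear), -0.050 (mitochondrial), -0.26 (core), 0.0037 (accessory), and -0.040, -0.17, 0.0019 and -0.051 for nuclear complexes I, III, IV and V. Relative to the median of all genes they were 0.14, 0.13, -0.083 and 0.18 for the first 4 sets. Log2 fold changes turned negative for Atp5c1 (-0.044), Atp5g1 (-0.058), Atp5g3 (-0.15), Cox6a1 (-0.022), mt-Co1 (-0.060), mt-Cytb (-0.11), mt-Nd1 (-0.019), mt-Nd4 (-0.050), mt-Nd4l (-0.13), mt-Nd5 (-0.088) and Ucp2 (-0.13).

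DESeq2's Wald test called 741 genes and 10 subunits. The 20 CPM filter called 60 genes and gave complex III a median of -0.017. Without the robust option 0 genes were called. The labels share the numbers 1 and 2 between groups and do not say that these libraries were paired. The deviations of these pairs from their group means correlated at 0.062 and 0.014. With 2 controls, whose deviations mirror each other, this cannot show whether the libraries share more than a number. With the number as a replicate block, 0 genes were called, and 3 subunits lay higher and 3 lower at an unadjusted p under 0.05. These shares, 3.49% each way, lay near the 4.04% and 3.76% of all genes, so no excess was left in this fit. Replicates 3 and 4 exist only in IL-10/Fc, so each is fitted by its own term and adds nothing to the contrast. The contrast then rests on 2 libraries per group with few degrees of freedom, and the lost excess cannot be read as an absence. In this fit the complex III median was -0.083, and Atp5g3 (-0.043), mt-Cytb (-0.026) and mt-Nd4l (-0.0064) turned negative. The cause of these changes was not tested.

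Over the libraries left out in turn, 0 to 16 genes were called, 4 to 10 subunits lay lower at an unadjusted p under 0.05, 38 to 56 higher and 9 to 20 lower ones did not overlap (beside 14.5% to 25.2% and 14.3% to 26.9% of all genes), and the complex III median ran from -0.19 to 0.12. The 4 and the 10 lower subunits came from fits with 1 control left. With a treated library left out instead, 7 or 8 subunits (8.14% to 9.3%) lay lower, beside 4.36% to 5.22% of all genes. In the same fits 16 to 20 subunits (18.6% to 23.3%) lay higher, beside 5.5% to 6.52%. Over all libraries left out in turn, the median of all genes ran from -0.015 to 0.044, positive without either control. Log2 fold changes that changed sign ran from -0.12 to 0.18 (Atp5g3), -0.23 to 0.11 (Cox4i1), -1.83 to 5.91 (Cox6a2, from its few counts), -0.19 to 0.0038 (Cyc1), -0.046 to 0.16 (mt-Cytb), -0.033 to 0.11 (mt-Nd4l), -0.027 to 0.20 (mt-Nd5), -0.40 to 0.029 (Tmem70), -0.13 to 0.24 (Ucp2) and -0.36 to 0.12 (Uqcrfs1), each with a control left out at both ends. A control left alone was assumed to vary like the other group.

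The share of subunit counts on the 9 analysed mitochondrial genes was 0.436 percentage points higher in IL-10/Fc. This difference ran from -0.703 to 1.58 with a library left out, and scaling, tests and filters do not enter it. An unadjusted or adjusted p above the threshold does not show equal levels. Genes with few counts, such as Cox6a2, carry little information at this depth, and genes with near-identical copies rest on how reads were assigned.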

Other observations

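Among mitochondrial genes that are not subunits, the listed transfer RNA genes were at a mean of at most 29.3 CPM in PBS. mt-Tp stood at 30.6 and 28.04 CPM in PBS against 24.2, 28.5, 24.96 and 31.6 in IL-10/Fc, with overlap.

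Atp5s and Atp5sl, which share the name of ATP synthase but are not subunits, were low. Atp5s stood at 6.86 and 5.16 CPM in PBS against 3.89, 12.8, 8.21 and 4.87 in IL-10/Fc, and Atp5sl, an assembly factor of complex I, at 7.201 and 10.4 against 9.95, 11.3, 11.3 and 10.2, both with overlap.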
